A study of Enallax costatus with 10 samples.

Results

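The comparison is between drops of the green alga Enallax costatus that had lost most of their water and drops that had just been placed on glass. Late desiccation libraries came from drops that had dried for 7.5 h and lost 60% of their volume, and Hydrated libraries from drops taken at 0 h. Each stage had 2 libraries, numbered 1 and 2. All drops held 40 µL of a 6-week-old culture of strain CCAP 276-31, so strain, culture age and drop size were common to all groups; whether partners of a stage came from different cultures is not stated, and the p-values may therefore rest on technical spread alone. The series holds 10 libraries over 5 stages, and Early desiccation (2.5 h, 25% of the volume lost), Dry (about 24 h) and Rehydrated (1 h after water was added) are used here for the shared estimate of the spread and for levels across the course. The genes described are the assembly genes with 10 or more counts in at least 2 of the 4 compared libraries, which is 14683 of 32478. The deposited tables give assembly identifiers and no gene names, so 4 assembly genes are named and the others are described in groups.

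Green algae from dry habitats are known to survive the loss of cell water that kills most aquatic relatives. In plants and algae that tolerate drying, the response is known to include proteins and sugars that protect membranes and enzymes, scavengers of reactive oxygen, and a reduction of photosynthesis while light is still absorbed. No measure of survival was at hand, so whether this alga tolerates drying cannot be read from these data. Whether genes of these families are among those described cannot be read from identifiers alone. RNA was measured in whole drops, where fewer cells of a kind and less RNA per cell cannot be told apart.

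The 4 libraries were of similar depth, with 2643958 and 2829841 total counts in Late desiccation and 3611852 and 2808813 in Hydrated. The 14683 genes held between 96.4% and 98.7% of the counts of each library. Of them, 10257 reached 10 counts in all 4 libraries and 1948 in 3. Another 190 entered through the Late desiccation pair alone and 976 through the Hydrated pair alone, so these differed between the stages by the way they were selected. The remaining 1312 reached 10 counts in 1 library of each stage. In 14447 of the 14683 genes a test was made, as part of a fit of 16190 genes over all 10 libraries.

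The number 2 libraries of both stages shared features that set them apart from the number 1 libraries. There were 393 assembly genes with 10 or more counts in both number 2 libraries and none in either number 1 library, against 7 in the opposite direction. By comparison, 13 genes had 10 or more counts in both Late desiccation libraries and none in Hydrated, and 57 the reverse. Together with both Rehydrated libraries, the number 2 libraries (called set B here, and the other 6 libraries set A) had 147 genes that reached 3 counts in all of set B and were absent from set A, of which 80 are among the 14683. The labels give no batch, and the part of this difference in the results was not tested beyond the values within each set, which compare 1 Late desiccation library with 1 Hydrated library and are given below. Across 16190 genes, log2 CPM (CPM is the count relative to a library size scaled by TMM, the trimmed mean of M-values; a prior count of 2 was added) correlated at 0.81 between the Late desiccation libraries and 0.84 between the Hydrated libraries, against 0.82 between Late desiccation 1 and Hydrated 1 and 0.83 between Late desiccation 2 and Hydrated 2. A library was thus about as similar to the same-numbered library of the other stage as to its partner. Libraries that shared neither stage nor number were less alike, at 0.75 between Late desiccation 1 and Hydrated 2 and 0.77 between Late desiccation 2 and Hydrated 1.

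Late in drying, a few assembly genes took up a much larger part of all counts. In Late desiccation the 10 most abundant genes of a library held 50.8% and 41.5% of its counts, against 23.4% and 27.2% in Hydrated, and the 1000 most abundant held 78.9% and 73.8% against 67.3% and 65.1%. One in 2 counts came from the top 10 and 39 genes in the Late desiccation libraries, and from the top 252 and 238 in the Hydrated libraries. The groups did not overlap in any of these measures, and each gave p = 0.333 in the two-sided exact permutation test, which is the smallest p that 2 against 2 libraries allow. The order was the same when TRINITY_DN224299_c10_g1, the gene with the highest mean in both stages, was taken out. The 100 most abundant of the other genes held 51.2% and 44.4% of the remaining counts in Late desiccation and 38.2% and 37.4% in Hydrated.

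**Figure D1:**
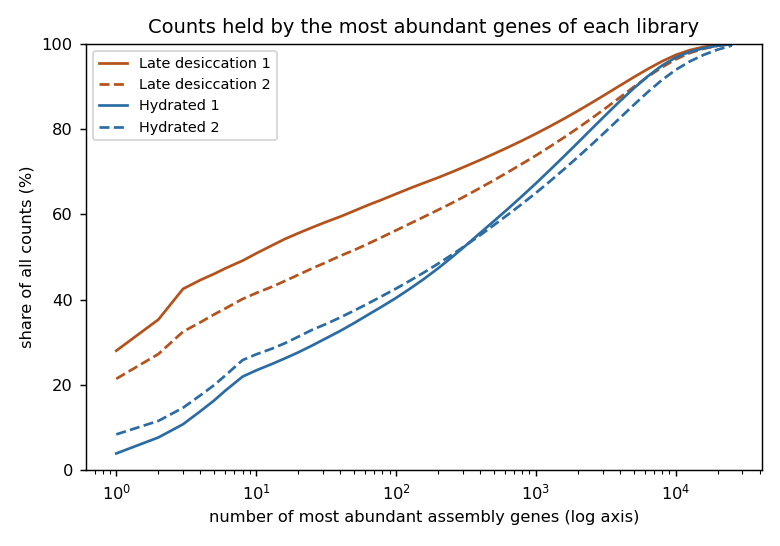
Cumulative share of all counts (%) against the number of most abundant assembly genes (log axis), for each Late desiccation library (orange) and each Hydrated library (blue); solid lines are number 1 and dashed lines number 2. Both Late desiccation curves lie above both Hydrated curves at 10 genes (50.8% and 41.5% against 23.4% and 27.2%) and at 1000 genes (78.9% and 73.8% against 67.3% and 65.1%).

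The gene with the largest gain was TRINITY_DN224299_c10_g1, the most abundant gene of Late desiccation and, by mean CPM, of Hydrated. It reached 257465 and 165451 CPM in Late desiccation, against 23470 and 48793 CPM in Hydrated (5.85-fold by the means). Both Late desiccation libraries lay above both Hydrated libraries. Partners were also far apart for this gene, as in Early desiccation at 70409 and 18795 CPM. The fitted log2 fold change was 2.55 (SE 0.90, edgeR quasi-likelihood test, unadjusted p = 0.0172, Benjamini-Hochberg adjusted p = 0.378), so the difference did not pass the adjusted threshold of 0.05. Within set A the difference was 3.46 on the log2 scale, and within set B it was 1.76. After Late desiccation the level was 18766 and 16545 CPM in Dry, and 91384 and 362576 CPM in Rehydrated. DESeq2 called this gene, with a log2 fold change of 2.58 (adjusted p = 0.0340).

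Per length, this gene stood even further above the rest. In the second deposited table, whose values are scaled for length, it made up 68.5% and 67.9% of the column total in Late desiccation, against 44.0% and 54.7% in Hydrated. It thus ranked first in Late desiccation on that scale as well as on counts. Trinity, the assembler whose form these identifiers have, writes the same first number for sequences it built from reads that overlapped. Assembly genes with the same first number are called a read cluster here, whatever their number after c. Such assembly genes can be parts or near-copies of one another between which reads are divided. The read cluster of this gene held 1 other assembly gene, which had 66080 and 40460 CPM in Late desiccation, against 9199 and 17110 CPM in Hydrated (fitted log2 fold change 2.02, edgeR unadjusted p = 0.0236, adjusted p = 0.412). It was the third most abundant gene of Late desiccation, and it shared the order of the 4 libraries with its partner.

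The highest ranks did not all go one way. Of the 10 most abundant genes of Late desiccation, 6 had both Late desiccation libraries above both Hydrated libraries and 4 had them below, and 5 of the 6 were at least 2-fold apart. The top 10 of the stages had 8 genes in common, and the top 100 had 66. The second gene of Late desiccation held 7.31% and 5.82% of counts there, against 2.29% and 3.08% in Hydrated. The seventh gene held 1.28% and 0.604%, against 0.0857% and 0.191% in Hydrated, and had the largest fitted log2 fold change of the 10, at 3.31 (edgeR unadjusted p = 0.00311, adjusted p = 0.252). By contrast, the fifth gene held 1.42% and 2.22% in Late desiccation, against 3.91% and 3.16% in Hydrated (fitted log2 fold change -0.51, edgeR adjusted p = 0.847).

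The largest loss of CPM was seen for TRINITY_DN211539_c3_g1, the fourth most abundant gene of Hydrated and the eighth of Late desiccation. It had 5499 and 8890 CPM in Late desiccation, against 19284 and 13007 CPM in Hydrated. The stages did not overlap, but the fitted log2 fold change of -1.17 had an SE of 0.63 and did not pass the test (edgeR unadjusted p = 0.0927, adjusted p = 0.609). The difference was -1.81 within set A and -0.55 within set B on the log2 scale. Its level in the other stages was 14452 and 25283 CPM at 2.5 h, 64831 and 81110 CPM in Dry, and 4332 and 7714 CPM in Rehydrated. The highest level of the course was thus in Dry, and Late desiccation lay below Hydrated, Early desiccation and Dry. All 12 assembly genes of its read cluster were tested, and of the other 11, 8 had a negative and 3 a positive fitted fold change, between -0.92 and 1.14, and none had an unadjusted edgeR p under 0.05.

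**Figure D2:**
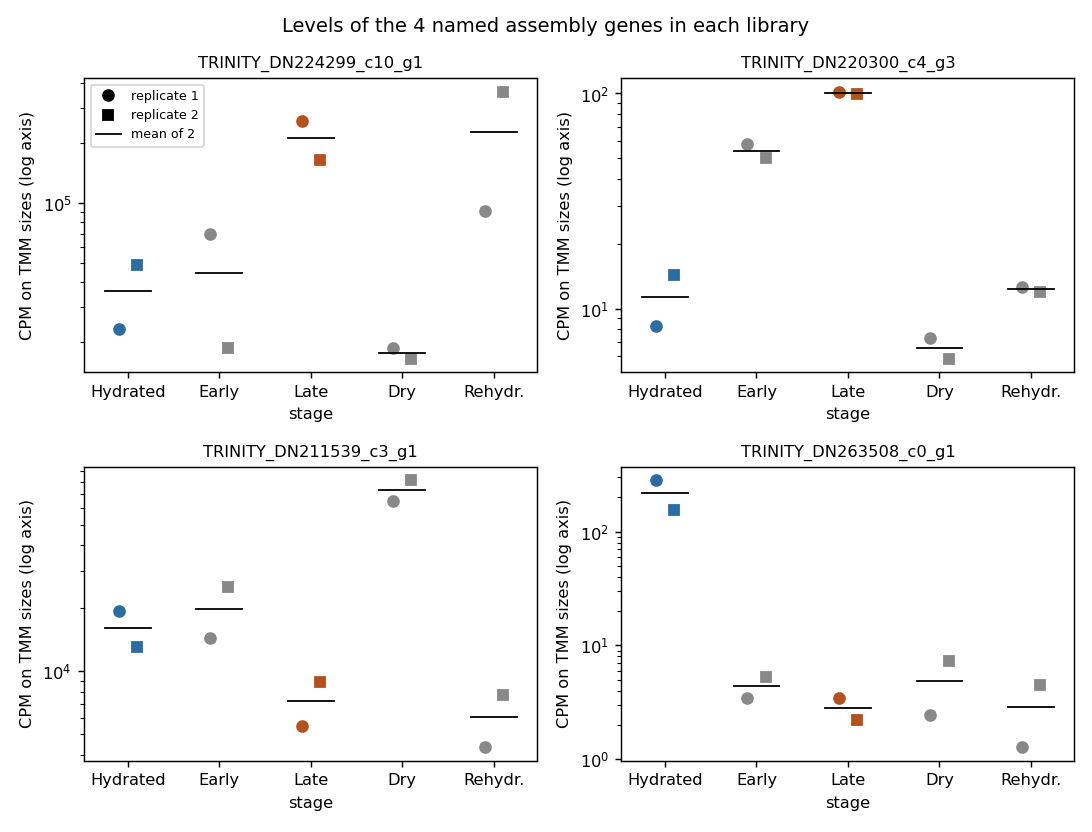
CPM on TMM-scaled library sizes (log axis) of the 4 named assembly genes in each library at the 5 stages; circles are number 1, squares number 2 and lines the mean of both, with Late desiccation in orange, Hydrated in blue and the other stages in grey. In each panel both Late desiccation points lie on one side of both Hydrated points, and for TRINITY_DN263508_c0_g1 the levels after Hydrated all lie below 10 CPM.

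The clearest single differences were at moderate levels. TRINITY_DN220300_c4_g3 had the lowest p of the genes higher in Late desiccation. It stood at 102 and 99.9 CPM (293 and 366 counts) in Late desiccation, against 8.32 and 14.3 CPM (48 and 69 counts) in Hydrated. The partners lay close to each other, the stages were far apart, and the fitted log2 fold change was 3.16 (SE 0.44, edgeR unadjusted p = 2.48e-05, adjusted p = 0.0571). DESeq2 called it, with an adjusted p of 1.6e-10. The differences within sets were 3.52 in set A and 2.76 in set B. The gene had 58.1 and 49.9 CPM in Early desiccation, 7.28 and 5.84 CPM in Dry, and 12.7 and 11.9 CPM in Rehydrated. Its level was thus highest in Late desiccation and, in Dry, below both Hydrated libraries.

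TRINITY_DN263508_c0_g1 had the lowest p of all genes tested. It had 3.48 and 2.18 CPM (10 and 8 counts) in Late desiccation, against 281 and 155 CPM (1623 and 748 counts) in Hydrated. The mean was 77.1-fold higher in Hydrated, and the fitted log2 fold change was -6.27 (SE 0.73, edgeR unadjusted p = 4.51e-06, adjusted p = 0.0518). The differences within sets were -6.12 in set A and -5.81 in set B. Almost all of the difference from Hydrated was present by 2.5 h, with 3.45 and 5.29 CPM in Early desiccation, and the level stayed low at 2.43 and 7.30 CPM in Dry and 1.27 and 4.47 CPM in Rehydrated. The other assembly gene of its read cluster had a different number after c and showed the same order of the stages. It had 7.30 and 12.3 CPM in Late desiccation, against 307 and 339 CPM in Hydrated (fitted log2 fold change -5.03, edgeR adjusted p = 0.0518). That gene too was low in Early desiccation, Dry and Rehydrated, between 3.03 and 11.1 CPM. DESeq2 called TRINITY_DN263508_c0_g1, with an adjusted p of 2.36e-15.

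Over all genes tested, no gene passed an adjusted p of 0.05 by edgeR (background 0%), and the lowest adjusted p was 0.0518, shared by 3 genes. At an unadjusted p under 0.05 there were 1546 genes (9.55% of 16190), 787 higher (4.86%) and 759 lower (4.69%) in Late desiccation, of which 735 and 692 are among the 14683. The Rehydrated pair took part in the estimate of the spread and was the least alike, with a median absolute log2 difference between partners of 1.42, against 0.51 in Late desiccation, 0.51 in Hydrated, 0.54 in Dry and 0.37 in Early desiccation. Without Rehydrated 1 edgeR called 125 genes (0.772% of 16190; 53 higher and 72 lower), and without Rehydrated 2 it called 183 (1.13%; 79 higher and 104 lower). In a fit of the 4 compared libraries alone it called none (0% of 14683), with 1285 higher and 1187 lower at an unadjusted p under 0.05. With the library number as a further term the calls from these 4 libraries differed, and they are given at the end.

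Other tools gave calls from the same libraries. DESeq2 called 200 genes higher and 182 lower in Late desiccation (1.18% of the 32476 genes it gave a p-value), of which 376 are among the 14683. All of the 200 and the 182 are among the 16190, so this share has a wider base than those below. Limma voom with library weights called 67 higher and 75 lower (0.877% of 16190). Of the 67 higher genes, 60 were also among the 200 (89.6% and 30% of the lists), and of the 75 lower genes, 70 were among the 182 (93.3% and 38.5%). With set A and B as a term, edgeR called 6 higher and 11 lower genes (0.105% of 16190). Within set A edgeR called 390 higher and 488 lower (5.42%), and within set B none (0%), where 50 higher and 85 lower genes had an unadjusted p under 0.05. Within a set the spread came from stages other than Late desiccation and Hydrated.

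As a description of size, genes were counted where both Late desiccation libraries lay at least 2-fold above or below both Hydrated libraries. There were 688 such genes higher and 625 lower in Late desiccation, 4.25% and 3.86% of those tested, and 651 and 568 of them are among the 14683. At least 4-fold apart were 84 higher and 111 lower, and at least 8-fold 19 higher and 29 lower. With no minimum, 4000 genes (24.7%) were higher and 4039 (24.9%) lower without overlap. Of the 688, 149 had 10 counts in both Late desiccation libraries and in neither Hydrated library, and of the 625, 222 had the reverse. The balance of directions rested on the scaling. With total counts in place of TMM, the 2-fold counts were 321 higher and 1478 lower, and the median fitted log2 fold change over the 16190 genes was -0.52, against -0.03 with TMM.

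The 688 higher genes held 53.4% and 40.2% of all counts in Late desiccation, against 9.79% and 17.4% in Hydrated, and include TRINITY_DN224299_c10_g1, which alone had 28.02% and 21.4% in Late desiccation and 3.75% and 8.39% in Hydrated. The 625 lower genes held 0.879% and 1.13% in Late desiccation, against 8.62% and 5.66% in Hydrated. These genes were picked for the difference, so the shares describe how much of the RNA they made up. In the middle of each list the levels were modest. The median higher gene had 15.9 CPM in Late desiccation and 3.83 CPM in Hydrated, and the median lower gene 3.47 CPM in Late desiccation and 14.5 CPM in Hydrated.

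The same-numbered libraries gave related but not equal differences. Across 16190 genes, the log2 difference of Late desiccation 1 from Hydrated 1 correlated at 0.35 (Pearson, genes not being independent replicates) with that of Late desiccation 2 from Hydrated 2. Differences of at least 2-fold were more common in set A, with 3163 genes higher and 2986 lower, than in set B, with 1969 higher and 2480 lower. In 923 genes both differences were at least 2-fold upward and in 871 both at least 2-fold downward, while 444 genes were at least 2-fold apart in opposite directions. The median absolute difference was 0.74 in set A and 0.57 in set B, against 0.51 between the Late desiccation partners and 0.51 between the Hydrated partners. In the quartile of genes with the highest mean level it was 0.74 in set A and 0.42 in set B, against 0.34 between the Late desiccation partners and 0.41 between the Hydrated partners. Over all genes the stages were thus further apart than partners in set A, and by less in set B. In the highest quartile this held in set A, while set B was close to the Hydrated partners. In the lowest quartile the stages were no further apart than partners, at 0.77 in set A and 0.96 in set B. There the values were 0.97 between the Late desiccation partners and 0.97 between the Hydrated partners.

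**Figure D3:**
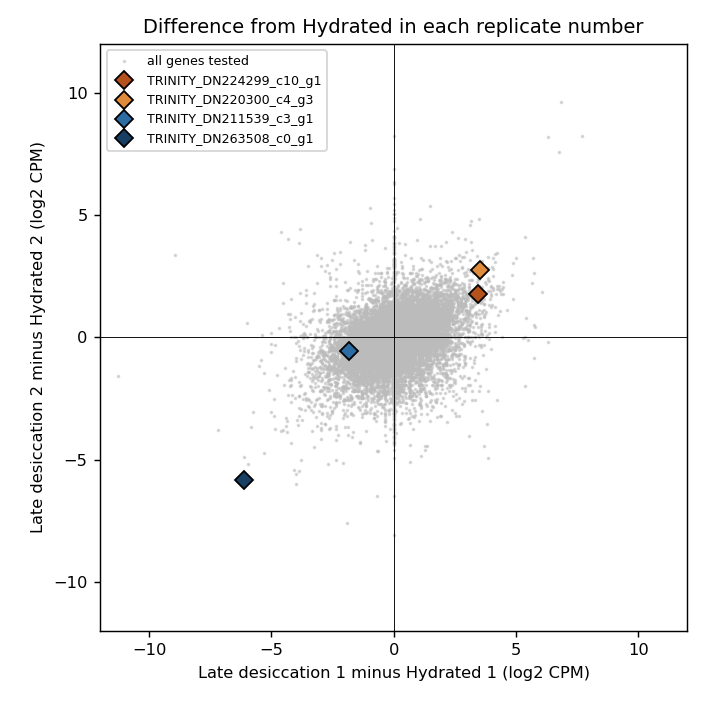
Log2 CPM difference of Late desiccation 1 from Hydrated 1 (horizontal) and of Late desiccation 2 from Hydrated 2 (vertical) for 16190 genes (grey), with the 4 named genes as diamonds. The cloud is spread around 0 in both directions (Pearson correlation 0.35), and the named genes lie in the quadrants where both differences have the same sign, with TRINITY_DN263508_c0_g1 at -6.12 and -5.81.

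A low p was more frequent among highly expressed genes. In the quartile with the highest mean log2 CPM over the 4 libraries, 275 genes were higher (6.79%) and 345 lower (8.52%) at an unadjusted p under 0.05, and in the lowest quartile 105 (2.59%) and 143 (3.53%), against 4.86% and 4.69% over all genes. Partners were also further apart at low levels, with a median absolute log2 difference between Late desiccation libraries of 0.34 in the highest and 0.97 in the lowest quartile, and between Hydrated libraries of 0.41 and 0.97. Of the 100 most abundant genes of Late desiccation, 29 were at least 2-fold higher and 1 lower, and of the 100 most abundant of Hydrated 10 were higher and 16 lower. Each list leans toward its own stage by the way it was made. Of the 66 genes on both lists, 10 were higher (15.2%) and 1 was lower (1.52%) by that measure. Over all genes tested these shares were 4.25% and 3.86%.

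Short assembly genes held a larger share of counts in Late desiccation. The quartile with the shortest effective length, relative to the median of each library, held 55.8% and 45.4% of counts in Late desiccation, against 19.98% and 27.5% in Hydrated, and the longest quartile held 25.1% and 31.6%, against 48.5% and 42.6%. TRINITY_DN224299_c10_g1 is in the shortest quartile. Without it, the shortest quartile held 38.6% and 30.5% of the remaining counts in Late desiccation, against 16.9% and 20.8% in Hydrated. Without the 10 most abundant genes of Late desiccation, of which 5 are in the shortest quartile, the values were 19.9% and 17.9% against 13.6% and 15.03%, and in the longest quartile 43.5% and 44.0% against 46.4% and 44.9%. Most of the shift thus lay in these 10 genes. They were picked for their level in Late desiccation, so a smaller gap without them is partly given by that choice. By gene rather than by count, the median fitted log2 fold change was 0.06 in the shortest and -0.05 in the longest quartile. In the shortest, 221 genes were at least 2-fold higher (5.46%) and 155 lower (3.83%). In the longest, 158 were higher (3.9%) and 169 lower (4.17%), against 4.25% and 3.86% over all genes tested. RNA quality was not among the values at hand, and its part in the length shift was not tested.

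**Figure D4:**
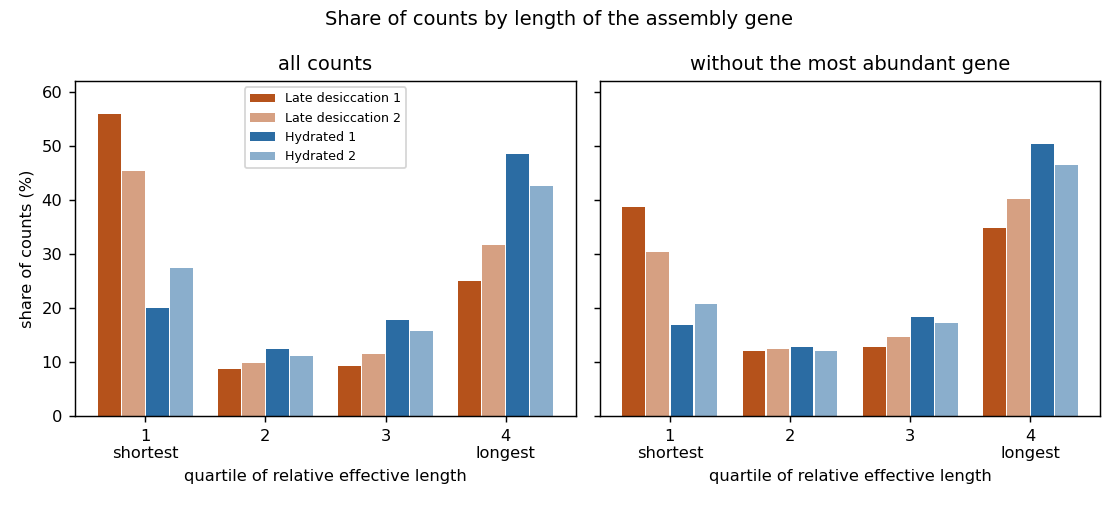
Share of counts (%) held by each quartile of genes ordered by relative effective length, for each Late desiccation library (orange) and each Hydrated library (blue), with paler bars for number 2; all counts on the left, and counts without TRINITY_DN224299_c10_g1 on the right. In the shortest quartile the Late desiccation bars stand at 55.8% and 45.4% against 19.98% and 27.5% in Hydrated, and without that gene at 38.6% and 30.5% against 16.9% and 20.8%.

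Most read clusters in the lists had 1 gene there. The 16190 genes came from 11008 read clusters, of which 3101 held 2 or more tested genes. In 1181 read clusters at least 1 gene was at least 2-fold apart, and in 107 of these at least 2 genes were. In 39 of the 107 the genes were all higher, in 43 all lower, and in 25 both directions occurred. Because reads shared between near-copies are divided by estimation, genes of a cluster are not separate observations, and the 688 and 625 genes came from 640 and 566 read clusters.

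Across the course, most genes of both lists were nearer to their Late desiccation level than to Hydrated by Early desiccation. The median CPM of the 688 genes was 3.29 and 4.14 in the Hydrated libraries, 9.98 and 9.79 at 2.5 h, 16.7 and 14.9 in Late desiccation, 4.25 and 4.14 in Dry, and 5.69 and 5.96 after rehydration. For the 625 genes it was 15.4 and 13.7 in Hydrated, 5.99 and 5.29 at 2.5 h, 3.13 and 3.55 in Late desiccation, 6.07 and 4.87 in Dry, and 6.96 and 5.96 in Rehydrated. Both lists were picked at their extremes in Hydrated and Late desiccation, so levels nearer the middle elsewhere are partly given by that choice. Taking the point midway between the Hydrated and Late desiccation means on the log2 scale, 389 of the 688 (56.5%) were on the Late desiccation side in Early desiccation, 186 (27%) in Dry and 210 (30.5%) in Rehydrated, and 190 (27.6%) were there in Late desiccation alone. Of the 625, 438 (70.1%) were on the Late desiccation side in Early desiccation, 368 (58.9%) in Dry and 383 (61.3%) in Rehydrated, and 43 (6.88%) in Late desiccation alone. More of the higher genes than of the lower genes were thus on the Hydrated side in Dry. The median of all 16190 genes was itself lower in Dry, at 5.46 and 5.84 CPM. It was 7.45 and 8.08 CPM in Hydrated and 7.99 and 8.46 CPM in Late desiccation. No test was made of the difference between the lists, or of the part of this lower median in it.

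**Figure D5:**
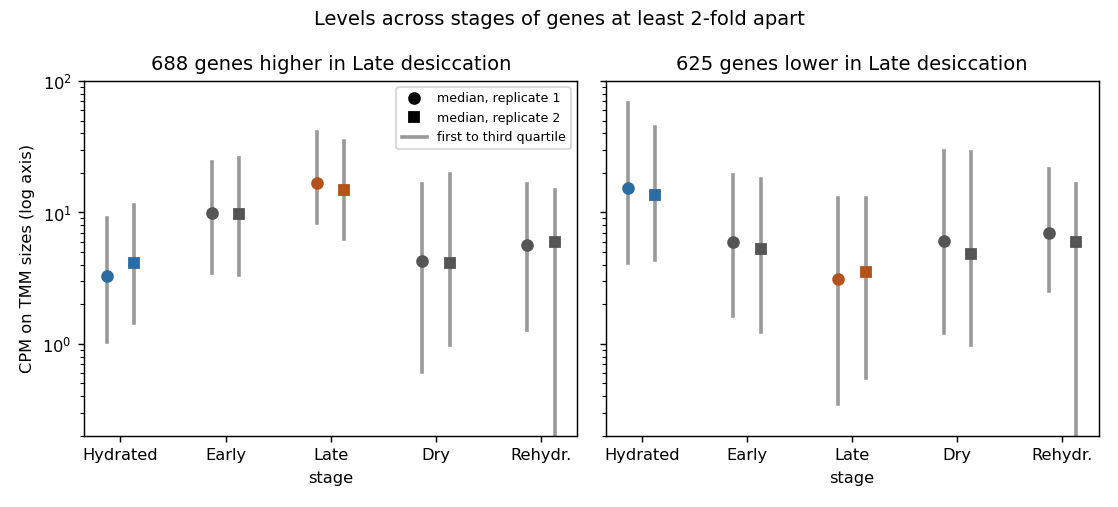
Median CPM (points) and interquartile range (bars) in each of the 10 libraries, on a log axis, of the 688 genes at least 2-fold higher (left) and the 625 genes at least 2-fold lower (right) in Late desiccation; circles are number 1 and squares number 2, and bars that reach the lower edge go on below it. The medians of the higher genes peak at 16.7 and 14.9 in Late desiccation and are 4.25 and 4.14 in Dry, and those of the lower genes are lowest in Late desiccation at 3.13 and 3.55, against 15.4 and 13.7 in Hydrated.

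The genes called by DESeq2 had higher levels, and their course differed from that of the longer lists in Dry. The 200 higher genes had medians of 11.0 and 14.4 CPM in Hydrated, 34.9 and 39.3 at 2.5 h, 59.1 and 48.2 in Late desiccation, 24.9 and 26.5 in Dry, and 18.98 and 17.9 in Rehydrated. The 182 lower genes had 96.1 and 66.5 CPM in Hydrated, 22.9 and 20.6 at 2.5 h, 16.9 and 16.1 in Late desiccation, 45.8 and 42.8 in Dry, and 25.6 and 17.9 in Rehydrated. In Dry the medians of both DESeq2 lists lay between those of Late desiccation and Hydrated, whereas the medians of the 688 genes, at 4.25 and 4.14 CPM, were close to Hydrated. The contrast between higher and lower genes in Dry thus depends on how the genes were chosen. Of the 200, 174 were also at least 2-fold apart (87% of them and 25.3% of the 688), and of the 182, 157 (86.3% and 25.1% of the 625). Of the 382 called genes, 4 had no counts in Hydrated and 7 none in Late desiccation.

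Most of the 20 genes with the lowest p in each direction, taken where stages did not overlap and the mean of either reached 10 CPM, were on the Late desiccation side of that midpoint by Early desiccation. The 20 higher genes had edgeR adjusted p between 0.0571 and 0.19, and a median of 44.3 and 50.9 CPM in Late desiccation, against 3.72 and 6.22 CPM in Hydrated. They were already at 32.8 and 36.2 CPM in Early desiccation, and 16 of the 20 were on the Late desiccation side there, as were 9 in Dry and 6 in Rehydrated. The 20 lower genes had edgeR adjusted p between 0.0518 and 0.155, and a median of 7.82 and 9.82 CPM in Late desiccation, against 231 and 137 CPM in Hydrated. They stood at 12.6 and 10.3 CPM in Early desiccation, and all 20 were on the Late desiccation side there, as were 16 in Dry and 15 in Rehydrated. As a group the lower genes held 0.0368% and 0.0433% of counts in Late desiccation, against 1.10% and 0.823% in Hydrated.

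Some transcripts were found in Late desiccation and not in Hydrated, or the reverse. The 13 genes with 10 or more counts in both Late desiccation libraries and none in Hydrated had up to 346 and 640 counts there, with medians of 23 and 21. They were at least 12.4-fold to at least 521-fold higher in Late desiccation, taken against 3 counts summed over the Hydrated libraries. In Early desiccation 11 of them had a count, in Dry 3 and in Rehydrated 7, but only in Rehydrated did any (2 genes) reach 10 counts in both libraries. The 57 genes found in Hydrated and not in Late desiccation had medians of 20 counts in each Hydrated library and at most 234 and 175. They were at least 4.53-fold to at least 62.3-fold lower in Late desiccation. Both sets were picked for 10 or more counts in both libraries of 1 stage and none in the other. Large folds were thus given by that choice. The same rule by library number gave 393 genes in the number 2 libraries and 7 in the number 1 libraries. Of the 57, 44 had a count in Early desiccation, 38 in Dry and 42 in Rehydrated, and 9, 8 and 3 reached 10 counts in both libraries of those stages. The fold limits allow for counting error only, and not for differences between libraries of a stage. PCR copies of a molecule were not told apart, so counting error itself may be larger.

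Fewer assembly genes were detected in Late desiccation than in Hydrated. At a common depth of 2643958 counts, 24023 and 25889 genes had a count in Late desiccation, against 26099 and 30049 in Hydrated. The stages did not overlap (two-sided exact permutation p = 0.333, the smallest possible). Within each stage the number 2 library had more genes than the number 1 library, by more than the gap between Late desiccation 2 and Hydrated 1. With at least 10 counts per gene the stages overlapped, at 12025 and 13424 genes in Late desiccation and 12658 and 16266 in Hydrated (exact permutation p = 0.667). The common depth is one of all counts. The 10 most abundant genes of a library held 50.8% and 41.5% of its counts in Late desiccation, against 23.4% and 27.2% in Hydrated. Fewer counts were thus left for the other genes in Late desiccation, and the part of this in the detected numbers was not tested.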

How the data were processed

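RNA of drops of Enallax costatus was sequenced after ribosomal RNA was depleted with oligos, per the labels' protocols. Per the submitters' processing notes the tools were CASAVA 1.4, Trimmomatic 0.35, Bowtie2 2.2, RSEM 1.2.28 and DESeq2; no role, assembly or annotation is named. One deposited table gives each assembly gene's expected count, for which RSEM divides a read among matching sequences; 11.4% of values were not whole. The second deposited table holds a score, length-normalised and scaled per library, judged from its name and values. Column names begin with Scos where titles have Ecos, so replicate number and time code served to assign them. Relative length is the count divided by the second table's value, over the library's median, where counts reached 5.

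Expected counts were rounded. The filter was filterByExpr in edgeR 4.0.16 under R 4.3.3 (minimum count 10, minimum total 15); counts were scaled by TMM, and fitted with edgeR's quasi-likelihood test over all 10 libraries with stage as the factor (5 residual degrees of freedom); Late desiccation minus Hydrated was tested, with Benjamini-Hochberg adjustment over 16190 genes. SE is the absolute log2 fold change divided by the square root of F. A fold within a set is the difference of log2 CPM with a prior count of 2. Alternatives used DESeq2 1.42.0 and limma 3.58.1. The fit was also run on simulated data with the same dispersion for all genes and stages, unlike these libraries, so no result here rests on that run. Partners of a stage differed beyond sampling noise (chi-square per degree of freedom 17.8 in Late desiccation and 20.6 in Hydrated), so none were merged.

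The named genes are, in each direction and among genes without overlap, the one with the largest difference of mean CPM and the one with the lowest p at 10 CPM or more in the higher stage. The genes and groups were chosen with earlier results of these data known. Other single genes are given by rank without a name and were chosen after their values were seen.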

Additional observations from a re-analysis of the deposited data

How the results depend on the processing

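The fitted log2 fold changes of the 4 named genes kept their direction under 24 alternatives. They ran from 1.73 to 3.46 for TRINITY_DN224299_c10_g1, 2.65 to 3.61 for TRINITY_DN220300_c4_g3, -1.81 to -0.55 for TRINITY_DN211539_c3_g1 and -6.75 to -5.66 for TRINITY_DN263508_c0_g1, and these genes were called in 1, 9, 0 and 13 of the 24. The number of genes called moved with the setting, from 0 in the fit reported. It was 49 with no filter on low counts, 7 among the 14683 genes in a fit of all libraries, 3 with DESeq2 size factors, 3 with upper quartile scaling, 382 with DESeq2, 142 with limma voom, 15 with limma on log2 of the second table plus 1, 17 with the set as a term and 878 within set A. Unadjusted p under 0.05 gave 219 higher genes with total counts, 1465 higher and 1216 lower with voom, 1285 and 1187 with the 4 libraries alone, 1495 and 1718 within set A, and 50 and 85 within set B. Over all genes the median fold (log2) was -0.226 with no filter, 0.007 among the 14683 genes, 0 with DESeq2 size factors and within set A, -0.515 with total counts, -0.123 with DESeq2, 0.014 with voom, -0.137 with the second table and -0.007 with 4 libraries. The 2-fold counts were 321 higher and 1478 lower with total counts, 4000 and 4039 with any fold, and 84 and 111 at 4-fold. The mean difference in the share of the 100 most abundant genes was 19.04 percentage points, 10.2 for the 1000 most abundant and 13.5 on the length-normalised scale. The causes were not tested.

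With 1 library left out, calls ran from 0 to 183 (1 without Hydrated 1, 125 without Rehydrated 1, 183 without Rehydrated 2), genes at an unadjusted p under 0.05 from 307 to 1400 higher and 372 to 1404 lower, the median from -0.137 to 0.089, and the 2-fold counts from 1104 to 1832 higher and 1349 to 1717 lower. A stage left with 1 library was assumed to vary like the others.

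The labels do not say that a shared number pairs libraries, and the deviations of partners correlated at 0.36 between Late desiccation and Hydrated, over 2 pairs only. With a replicate block, edgeR called 8 genes over all 10 libraries (0.0494% of 16190), and 476 in the 4 compared libraries (3.24% of 14683). In the 4 libraries with the block, 1343 higher and 1248 lower genes had an unadjusted p under 0.05.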
